A study of Mus musculus with 6 samples.

Results

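Aquaporins are channel proteins that let water cross cell membranes along osmotic gradients. Some of them, the aquaglyceroporins, also carry glycerol. In the rodent uterus estrogen causes swelling with fluid, and around implantation the luminal fluid is removed so that the lumen closes on the blastocyst, which is why these genes have been studied there. The 9 genes described here are Aqp1, Aqp2, Aqp3, Aqp4, Aqp5, Aqp7, Aqp8, Aqp9 and Aqp11, chosen by symbol among 37060 genes of the deposited table. All 9 had reads and all 9 passed the filter on low values.

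The libraries come from whole uterus on gestation day 5, when the mouse embryo implants, 3 from SRC-2d/d mutant mice and 3 from SRC-2f/f control mice. SRC-2 is the steroid receptor coactivator encoded by Ncoa2. By the usual notation SRC-2f/f mice carry floxed and SRC-2d/d mice deleted alleles, and the labels used here name neither the Cre driver nor the deleted part, nor ages. Each library held between 129905950 and 195782326 reads counted to genes. Values are normalized read counts (reads divided by a size factor per library, not by gene length). Differences are on the log2(normalized count + 1) scale, SRC-2d/d minus SRC-2f/f, with a standard error (SE), and a gene was called at a Benjamini-Hochberg adjusted p under 0.05 over all 36154 genes tested with limma. Ncoa2 had 7620, 6667 and 7409 normalized counts in SRC-2d/d replicates 1 to 3, against 13208, 13090 and 14495 in SRC-2f/f replicates 1 to 3, so the libraries match their labels (log2 difference -0.91, SE 0.20, adjusted p = 0.00953). SRC-2d/d replicate 2 stands apart from the other mutants for several aquaporins, and results that rest on it are given with and without it.

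Aqp8 was the only aquaporin called, and it was higher in SRC-2d/d uteri. Of the 9 genes 1 was called higher and 0 lower, against 5.34% of all tested genes called higher and 4.08% called lower (9.42% in either direction). Without SRC-2d/d replicate 2 the number called higher was 3, Aqp2 and Aqp5 being added. By limma 1 of the 9 had an unadjusted p under 0.05 and 0 of those that were lower did, against 8152 of all 36154 tested genes in either direction. Both count tests, edgeR and DESeq2 on the whole reads, called 1 higher and 0 lower. The median log2 difference over the 9 genes was 0.49, against -0.01 over all tested genes, and 6 of the 9 differences were above 0, against 49.6% of all tested genes. The median of the 9 rested on single libraries, being 0.34, 0.87 and 0.06 without SRC-2d/d replicates 1 to 3 and 0.40, 0.64 and 0.15 without SRC-2f/f replicates 1 to 3. SRC-2d/d replicate 2 had the lowest value of the 3 mutants for 6 of the 9 genes.

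**Figure D1:**
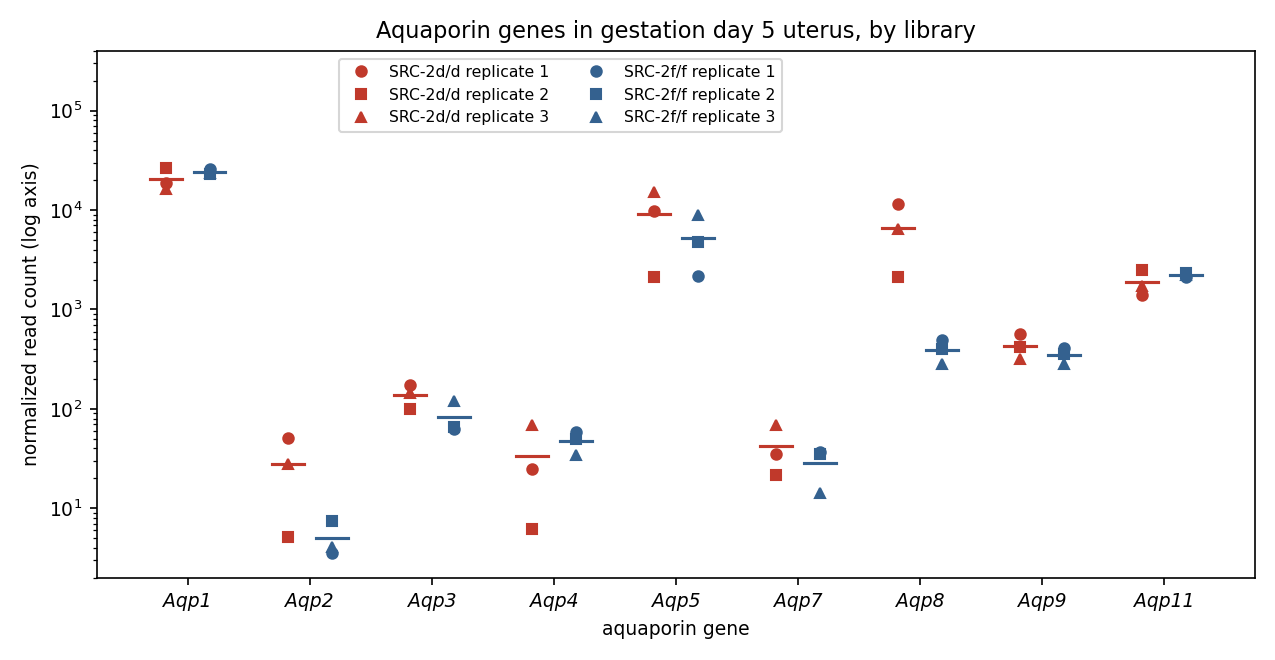
Normalized read counts (log axis, not corrected for gene length) of the 9 aquaporin genes in each library, SRC-2d/d in red and SRC-2f/f in blue, with a bar at the mean of 3 mice. Aqp8 is the gene whose mutant values, 2136 to 11428, lie clear of its control values, 285 to 491.

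Aqp8 encodes a channel for water that also passes ammonia and hydrogen peroxide. It had 11428, 2136 and 6393 normalized counts in SRC-2d/d replicates 1 to 3, against 491, 397 and 285 in SRC-2f/f replicates 1 to 3. Every mutant lay above every control, by 4.35-fold between the closest pair and 40.1-fold between the farthest. Such separation was seen for 1 of the 9 aquaporins upwards and 0 downwards, against 13.4% and 12.1% of all tested genes (25.5% in either direction). The means were 6652 ± 4652 in SRC-2d/d and 391 ± 103 in SRC-2f/f (SD, n = 3 each), a ratio of 17.0, and 10.9 without SRC-2d/d replicate 1. The log2 difference was 3.81 (SE 0.46, 95% interval 2.82 to 4.81, adjusted p = 0.000121). In an exact two-sided permutation test p was 0.1, which is the lowest value possible with 3 mice on each side. Its call held under all 18 alternatives, with log2 differences of 3.27 to 4.48 and adjusted p of 8.83e-18 to 0.0441. In whole tissue, more cells that express the gene and more RNA per cell cannot be told apart.

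The region upstream of the annotated start of Aqp8 is shown because Aqp8 is the one called gene, and that of Aqp2 because Aqp2 had the next largest log2 difference above 0 among the 9, though it was not called. Both are the 250 bases before the RefSeq start on GRCm38.p6, plus strand, at chr7:123462044-123462293 for Aqp8 and chr15:99578806-99579055 for Aqp2. Capitals mark matches to the motifs searched on both strands.
Aqp8: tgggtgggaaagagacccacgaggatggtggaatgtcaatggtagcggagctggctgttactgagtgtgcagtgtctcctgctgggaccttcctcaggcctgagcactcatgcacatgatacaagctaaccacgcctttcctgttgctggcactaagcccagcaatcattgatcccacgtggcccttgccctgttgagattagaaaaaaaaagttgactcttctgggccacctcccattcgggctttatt
Aqp2: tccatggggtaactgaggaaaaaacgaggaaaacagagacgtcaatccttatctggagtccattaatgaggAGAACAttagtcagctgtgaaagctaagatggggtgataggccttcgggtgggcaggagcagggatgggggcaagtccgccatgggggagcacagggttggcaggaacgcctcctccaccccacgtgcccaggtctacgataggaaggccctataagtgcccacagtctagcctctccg

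The motifs were the full palindromic estrogen response element, its core TGACC (which the full element contains), the core TGTTCT of glucocorticoid and progesterone response elements, the TATA box TATAAA and the GC box GGGCGG. They occur in 0.0645%, 35.3%, 16.0%, 12.3% and 33.0% of 32536 distinct RefSeq windows of the same length. The Aqp8 window held 0 matches to any of them, which says only that these letters are not in this window. The Aqp2 window held 1 match, to TGTTCT on the minus strand (AGAACA as printed), from base 72 of the 250. RefSeq windows of 8 of the 9 aquaporins were searched, and none of these held the full estrogen response element. The Aqp5 window held 1 TGACC core and 2 GC boxes at 78.4% G and C, against 52.4% G and C for Aqp8.

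Luminal epithelial markers moved with Aqp8. All 10 markers of the luminal epithelium on the list (Calb1, Cbr2, Elf3, Krt19 and Wnt7a among them) were called higher, against 5.34% of all tested genes. Without any single library 9 or 10 of the markers were called higher. The median log2 difference of the 10 markers was 2.66, and none was at 0. Their summed normalized counts were 496621, 338015 and 765229 in SRC-2d/d replicates 1 to 3, against 68211, 59900 and 56402 in SRC-2f/f replicates 1 to 3. The part of the luminal epithelium in the Aqp8 result was not tested. Aqp8 was also set against these markers, a ratio chosen after the data were seen; the markers themselves differed unequally, by 1.16 (Wnt7a) to 5.63 (Cbr2) on the log2 scale. Per 1000 summed marker counts, Aqp8 had 23.0, 6.32 and 8.35 counts in SRC-2d/d replicates 1 to 3, against 7.20, 6.62 and 5.06 in SRC-2f/f replicates 1 to 3. On this scale the genotypes overlapped, with SRC-2d/d replicate 2 inside the control range, and the ratio of means was 2.00 (exact two-sided permutation p = 0.3). With the mean log2 level of the 10 markers in place of their sum, Aqp8 stood 0.76 log2 units higher relative to them in SRC-2d/d, again with overlap (exact two-sided permutation p = 0.3).

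Embryo cells could also contribute RNA to a day 5 uterus. The 8 embryo genes looked at (chosen after the data were seen) summed to 1293 to 3008 normalized counts in SRC-2d/d and 1421 to 2988 in SRC-2f/f, with Eomes giving the largest part in every library. Pou5f1, a defining pluripotency gene, had 11.4, 0 and 0 normalized counts in SRC-2d/d replicates 1 to 3, against 0.879, 28.9 and 5.09 in SRC-2f/f replicates 1 to 3. Of the 8 only Elf5 was called, against 9.42% of all tested genes. Elf5 was higher in SRC-2d/d (adjusted p = 0.000145), as were all 10 luminal epithelial markers. No source used here shows that these 8 genes are read only from embryo cells, so neither the sum nor the Elf5 call measures embryo RNA. The part of embryo RNA in the aquaporin values was not tested.

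Aqp5 encodes the water channel of the apical membrane of many glands and is known from uterine epithelium. It had 9852, 2122 and 15301 normalized counts in SRC-2d/d replicates 1 to 3, against 2168, 4789 and 8858 in SRC-2f/f replicates 1 to 3. Mutants 1 and 3 were above all controls and mutant 2 was below all of them. The values differed 7.21-fold among mutants and 4.09-fold among controls, so neither genotype was uniform. The log2 difference was 0.60 (SE 0.60, 95% interval -0.69 to 1.88, adjusted p = 0.622). Without SRC-2d/d replicate 2 it was 1.44 and was called (adjusted p = 0.0268), without SRC-2d/d replicate 3 it was 0.02 (adjusted p = 0.991) and without SRC-2f/f replicate 1 it was 0.07 (adjusted p = 0.965). The adjusted p over all alternatives ran from 0.0268 to 0.991.

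Relative to the luminal markers the order of the genotypes was the opposite. Per 1000 summed luminal marker counts, Aqp5 had 19.8, 6.28 and 20.0 counts in SRC-2d/d replicates 1 to 3, against 31.8, 80.0 and 157 in SRC-2f/f replicates 1 to 3. Every mutant lay below every control on this scale, with a ratio of means of 0.172 (exact two-sided permutation p = 0.1, the smallest possible). The luminal sum used as divisor was itself higher in every mutant than in every control, and undivided Aqp5 counts overlapped. The separation is therefore not one of Aqp5 alone. Of the 10 glandular markers 3 were called higher and 5 lower, against 5.34% and 4.08% of all tested genes. The sum of these markers was 18185 to 27443 in SRC-2d/d and 125003 to 316576 in SRC-2f/f. The gland protease genes Prss28 and Prss29, both called lower, made up 4.73% to 6.05% of that sum in SRC-2d/d and 81.8% to 90.8% in SRC-2f/f. Per 1000 of that sum, which those genes dominate in controls, Aqp5 was 16.5 times as high in SRC-2d/d. Relative to the mean log2 level of the 10 glandular markers it stood 3.06 log2 units higher, and relative to that of the luminal markers it differed by -2.46, so the direction for Aqp5 depends on which epithelial list it is set against. The glandular markers differed unequally, from -8.13 (Spink1) to 3.63 (Lif) on the log2 scale, so a few genes weigh heavily in their mean too.

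**Figure D2:**
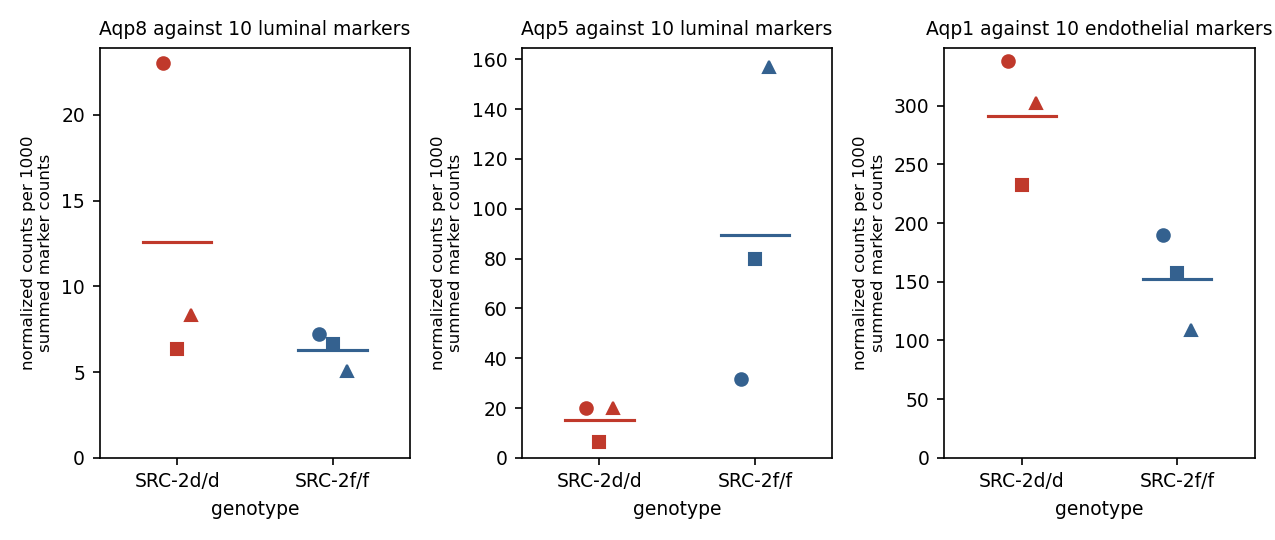
Normalized counts of Aqp8 and Aqp5 per 1000 summed counts of 10 luminal epithelial markers, and of Aqp1 per 1000 summed counts of 10 endothelial markers, by library (circle, square and triangle are replicates 1, 2 and 3) with a bar at the mean. Aqp8 overlaps between genotypes at 6.32 to 23.0 in SRC-2d/d and 5.06 to 7.20 in SRC-2f/f, Aqp5 is lower in all SRC-2d/d libraries and Aqp1 is higher in all of them. The luminal sums are higher and the endothelial sums lower in every SRC-2d/d library, so each divisor itself separates the genotypes.

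Aqp2 encodes the water channel of the renal collecting duct that vasopressin controls. Its counts were low, at 51.1, 5.20 and 28.1 normalized counts in SRC-2d/d replicates 1 to 3 (45, 5 and 34 reads), against 3.52, 7.49 and 4.07 in SRC-2f/f replicates 1 to 3 (4, 7 and 4 reads). Mutants 1 and 3 lay above all controls and mutant 2 lay among them. The mean ratio was 5.60, and 3.32 without SRC-2d/d replicate 1. On the log2 scale the difference was 1.87 (SE 0.87, 95% interval -0.00093 to 3.73, adjusted p = 0.222). It was called only without SRC-2d/d replicate 2 (2.75, adjusted p = 0.0373), with adjusted p up to 0.557 over all alternatives. Aqp2, Aqp5 and Aqp6 follow one another on the same strand in the mouse annotation. Of 5 kidney markers 0 were called higher and 1 lower, against 5.34% and 4.08% of all tested genes. The list is not specific to kidney, since Atp6v0d2 and Hsd11b2 had high counts in SRC-2f/f uteri and Slc4a1 is also on the erythroid list. The source of the Aqp2 reads was not tested. The one lower was Atp6v0d2, a proton pump subunit gene, at 1213 ± 953 in SRC-2d/d and 22192 ± 3959 in SRC-2f/f (SD, n = 3 each; log2 difference -4.46, adjusted p = 8.30e-06). Hsd11b2 had 29201 to 73287 normalized counts in SRC-2d/d and 28519 to 37174 in SRC-2f/f, Slc4a1 had 86.0 to 353 in SRC-2d/d and 135 to 261 in SRC-2f/f, and Avpr2, the renal vasopressin receptor gene, had 13.5 to 28.4 in SRC-2d/d and 10.2 to 26.4 in SRC-2f/f. Umod was at 0 in all libraries except SRC-2f/f replicate 2, with 4.28 normalized counts.

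Aqp1 encodes the constitutive water channel of endothelium, red cells and, in the mouse uterus, smooth muscle, and was the most abundant aquaporin per length in controls. It had 18778, 26556 and 16149 normalized counts in SRC-2d/d replicates 1 to 3, against 25802, 23093 and 23785 in SRC-2f/f replicates 1 to 3. Mutants 1 and 3 lay below all controls and mutant 2 above all of them. Between genotypes the log2 difference was -0.27 (SE 0.23, 95% interval -0.76 to 0.22, adjusted p = 0.545), and -0.47 without SRC-2d/d replicate 2 (adjusted p = 0.219).

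Endothelial markers were lower in SRC-2d/d in this fit, while Aqp1 was not called. Of 10 endothelial markers 8 were called lower and 0 higher, against 4.08% and 5.34% of all tested genes. The median difference of the 10 markers was -1.11. The number called lower was 2, 10 and 2 without SRC-2d/d replicates 1 to 3 and 3, 1 and 0 without SRC-2f/f replicates 1 to 3, and 0 with eBayes without trend. Their sum was 55580, 114155 and 53405 in SRC-2d/d replicates 1 to 3, against 135734, 146686 and 218036 in SRC-2f/f replicates 1 to 3, and none was at 0. Per 1000 summed endothelial counts, Aqp1 had 338, 233 and 302 counts in SRC-2d/d replicates 1 to 3, against 190, 157 and 109 in SRC-2f/f replicates 1 to 3. Every mutant lay above every control on this scale (ratio of means 1.91, exact two-sided permutation p = 0.1). The endothelial sum used as divisor was itself lower in every mutant than in every control, and undivided Aqp1 counts overlapped. The separation is therefore not one of Aqp1 alone. Of 8 myometrial markers 1 (Des) was called lower and 0 higher, against 4.08% and 5.34% of all tested genes. These markers summed to 420912 to 558620 in SRC-2d/d and 672513 to 728004 in SRC-2f/f. Per 1000 of them, again a divisor lower in every mutant, Aqp1 had 37.9 to 47.5 counts in SRC-2d/d and 32.7 to 35.8 in SRC-2f/f. Of 8 erythroid markers 0 were called, against 9.42% of all tested genes. Erythroid markers summed to 52445 to 212568 in SRC-2d/d and 70175 to 96497 in SRC-2f/f. In all, 7 such ratios of an aquaporin to a marker list were computed, and with 3 against 3 mice none could reach a p under 0.1.

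Aqp4 encodes the main water channel of brain astrocytes. It had 25.0, 6.24 and 69.5 normalized counts in SRC-2d/d replicates 1 to 3, against 58.9, 50.3 and 34.6 in SRC-2f/f replicates 1 to 3. The mutants spread over an 11.1-fold range on both sides of the controls. Their log2 difference from controls was -1.01 (SE 0.77, 95% interval -2.67 to 0.64, adjusted p = 0.496), and it was -0.16 without SRC-2d/d replicate 2. GENCODE M21 places an antisense gene across Aqp4, and no source used here gives the strand setting of the counting, so reads of the pair may not have been kept apart.

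The aquaglyceroporins Aqp3, Aqp7 and Aqp9 carry glycerol as well as water, and none of them was called. Aqp3, found in basolateral membranes of epithelia, had 175, 99.9 and 143 normalized counts in SRC-2d/d replicates 1 to 3, against 63.3, 65.2 and 119 in SRC-2f/f replicates 1 to 3. The mutant was the higher in 8 of the 9 pairs of a mutant with a control. This gave a log2 difference of 0.77 (SE 0.46, 95% interval -0.22 to 1.77, adjusted p = 0.364), and 0.59 to 1.07 over the alternatives.

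Aqp7 is the glycerol exit channel of adipocytes. It had 35.2, 21.8 and 69.5 normalized counts in SRC-2d/d replicates 1 to 3, against 36.9, 35.3 and 14.3 in SRC-2f/f replicates 1 to 3. The genotypes overlapped (log2 difference 0.49, SE 0.66, 95% interval -0.93 to 1.91, adjusted p = 0.712). The difference was 0.06 without SRC-2d/d replicate 3 or SRC-2f/f replicate 3 and 0.87 without SRC-2d/d replicate 2, with adjusted p of 0.498 to 0.974 over all alternatives. Of 8 adipocyte markers 0 were called, against 9.42% of all tested genes. The sums of these markers differed widely between libraries of 1 genotype. They were 15176, 2628 and 10377 in SRC-2d/d replicates 1 to 3, against 14542, 2591 and 1038 in SRC-2f/f replicates 1 to 3. In SRC-2f/f the libraries had the same order for Aqp7 as for these sums, though replicates 1 and 2 had nearly equal Aqp7 values. Among the mutants replicate 2 was lowest in both, while replicate 1 had the highest sum but less Aqp7 than replicate 3. These Aqp7 values rest on 14 to 84 reads. The part of adipose tissue in the Aqp7 values was not tested.

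Aqp9, a glycerol channel of hepatocytes that leukocytes also express, had 563, 418 and 318 normalized counts in SRC-2d/d replicates 1 to 3, against 406, 357 and 285 in SRC-2f/f replicates 1 to 3. The log2 difference was 0.28 (SE 0.33, 95% interval -0.43 to 1.00, adjusted p = 0.676), with overlap, and it was 0.08 without SRC-2d/d replicate 1 and 0.49 without SRC-2d/d replicate 3. Of 10 neutrophil and macrophage markers 1 (Ly6g) was called higher and 1 (S100a8) lower, against 5.34% and 4.08% of all tested genes. These markers summed to 19804 to 30496 in SRC-2d/d and 16653 to 25916 in SRC-2f/f. Aqp9 per 1000 of them averaged 18.3 ± 6.89 in SRC-2d/d and 17.9 ± 3.09 in SRC-2f/f (SD, n = 3 each). The 2 genes annotated across Aqp9 on the opposite strand, Gm32511 and Gm47268, averaged 7.04 and 8.49 normalized counts in SRC-2d/d, against 10.9 and 2.47 in SRC-2f/f.

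Aqp11, an unorthodox aquaporin of intracellular membranes, had 1406, 2509 and 1726 normalized counts in SRC-2d/d replicates 1 to 3, against 2114, 2336 and 2244 in SRC-2f/f replicates 1 to 3. Its pattern over the mutants matched that of Aqp1, with replicates 1 and 3 below all controls and replicate 2 above all of them. Its log2 difference was -0.29 (SE 0.25, 95% interval -0.83 to 0.26, adjusted p = 0.569). It was -0.52 without SRC-2d/d replicate 2 (adjusted p = 0.218) and -0.10 without SRC-2d/d replicate 1 (adjusted p = 0.879).

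**Figure D3:**
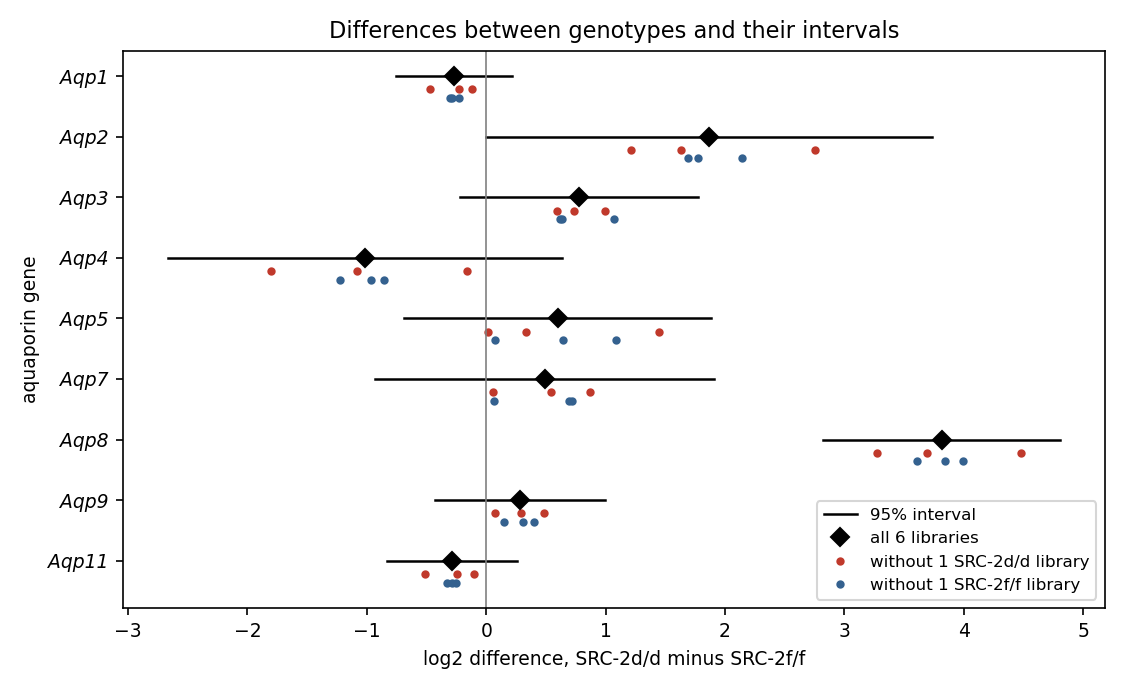
Log2 difference (SRC-2d/d minus SRC-2f/f, diamond) with its 95% interval for each aquaporin, and below it the value on leaving out each SRC-2d/d library (red) or each SRC-2f/f library (blue). Only Aqp8 has an interval far from 0, and the widest moves on leaving out a mutant library are those of Aqp2, Aqp4 and Aqp5.

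Of the aquaporin genes outside these 9, Mip, the lens fibre aquaporin, had 6.82, 53.0 and 6.62 normalized counts in SRC-2d/d replicates 1 to 3, against 63.3, 41.7 and 18.3 in SRC-2f/f replicates 1 to 3 (adjusted p = 0.384). Aqp6 had 0 reads in all 3 SRC-2d/d libraries and 3, 4 and 0 reads in SRC-2f/f replicates 1 to 3. Aqp12 had 6, 20 and 0 reads in SRC-2d/d replicates 1 to 3 and 0 reads in all 3 SRC-2f/f libraries, where 3 reads, the limit that a count of 0 allows, are 2.64 to 3.21 normalized counts. Neither was called (adjusted p = 0.419 and 0.191), and Aqp12 was called only without SRC-2d/d replicate 3.

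To compare levels between genes, normalized counts were divided by the summed exon length of each gene in GENCODE M21. In SRC-2d/d the mean levels per kb were 7801 for Aqp1, 4208 for Aqp8, 3498 for Aqp5, 199.7 for Aqp11, 104.5 for Aqp9, 76.2 for Aqp3, 19.8 for Aqp2, 14.9 for Aqp7 and 5.39 for Aqp4. In SRC-2f/f they were 9222 for Aqp1, 2028 for Aqp5, 247 for Aqp8, 237 for Aqp11, 84.3 for Aqp9, 45.1 for Aqp3, 10.2 for Aqp7, 7.69 for Aqp4 and 3.54 for Aqp2. The ranges of Aqp8 (180 to 311) and Aqp11 (224 to 248) overlapped in SRC-2f/f, as did those of Aqp7 (5.04 to 13.1) with Aqp4 (5.56 to 9.45) and with Aqp2 (2.48 to 5.27). In SRC-2d/d the levels per kb of Aqp1 (6147 to 10109), Aqp8 (1351 to 7229) and Aqp5 (816 to 5887) overlapped in turn, so their order there is not settled. The same holds there for Aqp9 with Aqp3, and for Aqp2, Aqp7 and Aqp4.

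The make-up of the aquaporin transcripts differed accordingly. Aqp8 made up 38.9%, 10.6% and 24.5% of the summed level per kb of the 9 genes in SRC-2d/d replicates 1 to 3, against 2.74%, 2.22% and 1.38% in SRC-2f/f replicates 1 to 3. Aqp1 made up 38.4%, 79.5% and 37.3% in SRC-2d/d replicates 1 to 3, against 86.5%, 77.9% and 69.5% in SRC-2f/f replicates 1 to 3. The share of Aqp8 separated the genotypes, and that of Aqp1 did not because SRC-2d/d replicate 2 lay inside the control range. The summed level per kb was 18601, 12710 and 16472 in SRC-2d/d replicates 1 to 3, against 11349, 11280 and 13028 in SRC-2f/f replicates 1 to 3, with overlap at SRC-2d/d replicate 2.

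**Figure D4:**
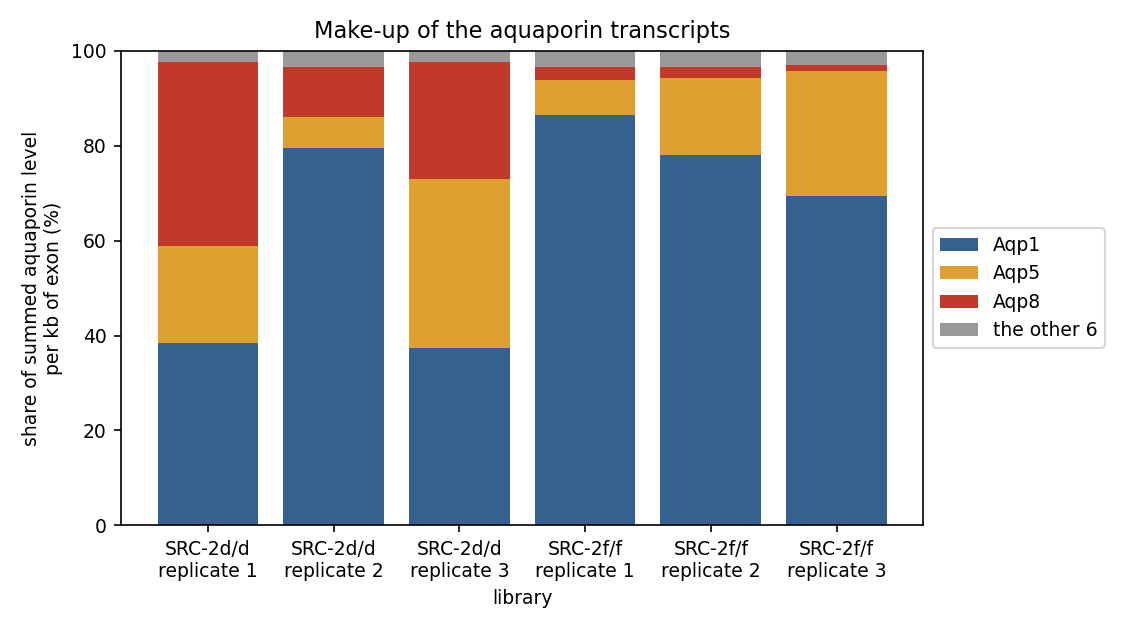
Share (%) of the summed aquaporin level per kb of exon held by Aqp1, Aqp5, Aqp8 and the other 6 genes in each library. Aqp8 takes 10.6% to 38.9% in SRC-2d/d and 1.38% to 2.74% in SRC-2f/f, and the make-up of SRC-2d/d replicate 2 is the nearest of the mutants to that of the controls.

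The genes whose profile over the 6 libraries was nearest to that of Aqp8, by root-mean-square distance between log2 values centred on the SRC-2f/f mean, were Cxcl17, Gm26226 and Slc28a3, among 17978 genes with a mean of at least 100. Their distances were 0.27, 0.33 and 0.40 log2 units. Cxcl17, a chemokine of mucosal surfaces, had 47796, 15476 and 41912 normalized counts in SRC-2d/d replicates 1 to 3, against 2995, 2028 and 1865 in SRC-2f/f replicates 1 to 3. Slc28a3, a sodium-coupled nucleoside transporter, had 37269, 16718 and 39861 in SRC-2d/d replicates 1 to 3, against 2446, 1804 and 1548 in SRC-2f/f replicates 1 to 3. Their likeness to Aqp8 over these libraries is what chose them.

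Water follows ions, and of 18 genes of ion transport for fluid movement 7 were called higher and 2 lower in SRC-2d/d, at a median of 0.80, against 5.34% and 4.08% of all tested genes. The 10 luminal epithelial markers were higher in the same libraries (median 2.66), and their part in this group and in the groups that follow was not tested. Fxyd4, Cftr, Fxyd3, Scnn1b and Kcnn4 were among the higher genes, and the lower ones were Slc9a2 and Slc4a4. Without any single library 6 to 9 were higher and 1 or 2 lower, and with eBayes without trend 4 and 1. Fxyd4, whose product modulates Na,K-ATPase, had 47676, 28601 and 46665 normalized counts in SRC-2d/d replicates 1 to 3, against 945, 2030 and 944 in SRC-2f/f replicates 1 to 3. Slc9a2, a sodium-proton exchanger, averaged 82.4 ± 43.3 in SRC-2d/d and 1330 ± 277 in SRC-2f/f (SD, n = 3 each; log2 difference -4.13, SE 0.42, adjusted p = 2.97e-05). Fxyd3, of the same family as Fxyd4, was 5.53 times as high in SRC-2d/d (adjusted p = 0.000141). The chloride channel gene Cftr was 32.3 times as high in SRC-2d/d (adjusted p = 1.75e-06). The calls of Fxyd4, Cftr, Fxyd3 and Slc9a2 held under all 18 alternatives, whereas those of Kcnn4 and Slc4a4 held under 11 and 12 of them.

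Of 11 genes of glycerol handling 4 were called higher and 0 lower, at a median of 0.62, against 5.34% and 4.08% of all tested genes. Gpd2, the mitochondrial glycerol-3-phosphate dehydrogenase, averaged 10586 ± 2354 in SRC-2d/d and 4111 ± 504 in SRC-2f/f (log2 difference 1.35, SE 0.23, adjusted p = 0.00174). The lipases Mgll and Lipe, which release glycerol from fat, were 2.05 and 2.19 times as high in SRC-2d/d (adjusted p = 0.00984 and 0.00996), and Gpd1, the cytosolic dehydrogenase, was 6.50 times as high (adjusted p = 0.0135) with overlap between genotypes. The glycerol kinase gene Gk stood at 1470 ± 175 in SRC-2d/d and 1450 ± 241 in SRC-2f/f (adjusted p = 0.967). The count of 4 was 2 without SRC-2d/d replicate 1, 1 without SRC-2f/f replicate 2, 1 without SRC-2f/f replicate 3 and 0 with eBayes without trend.

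Of 11 genes of the response to osmotic stress 2 were called higher and 0 lower, at a median of 0.19, against 5.34% and 4.08% of all tested genes. A count of 2 says little about the group. These were Trpv4, an osmosensitive calcium channel, at 3384 ± 1092 in SRC-2d/d and 1306 ± 124 in SRC-2f/f (log2 difference 1.32, SE 0.27, adjusted p = 0.00698), and Slc5a3, the myo-inositol transporter (1.10, SE 0.27, adjusted p = 0.0192). The count of higher genes was 0 without SRC-2f/f replicate 2 and with eBayes without trend, and 1 without SRC-2d/d replicate 1, SRC-2d/d replicate 3 or SRC-2f/f replicate 3. Without SRC-2d/d replicate 2, 2 genes were also lower. Nfat5, the transcription factor of that response, stood at 23166 ± 3786 in SRC-2d/d and 17528 ± 2463 in SRC-2f/f (adjusted p = 0.301).

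Among 14 tested genes that control, traffic or anchor aquaporins 2 were called higher and 0 lower, at a median of 0.08. Beside 5.34% of all tested genes called higher, 2 calls again say little about the group. Ezr, which encodes the membrane-cytoskeleton linker ezrin, averaged 74014 ± 22597 in SRC-2d/d and 28604 ± 1290 in SRC-2f/f (log2 difference 1.33, SE 0.24, adjusted p = 0.00319). Esr1 was the other (log2 difference 0.87, adjusted p = 0.0379), and its call was lost on leaving out each library except SRC-2d/d replicate 2, and with a pseudocount of 0.1. The number called higher was 1 in those cases and 0 with eBayes without trend.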

How the data were processed

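The labels' protocols name RNA from uterine tissue and a stranded mRNA library kit, and the tools listed per the submitters' processing notes are HISAT2, HTSeq and DESeq, without versions. No source used here gives the genome build, the annotation or the strand setting. The deposited table is titled FPKM, but in each library 100% of values came out as whole reads once divided by 1 common step (tolerance 1e-06), so the authors' values are a signal made of read counts divided by a size factor. Dividing by that step recovered whole reads. Count totals in the text are these reads.

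The main fit was limma 3.58.1 (R 4.3.3; eBayes with trend) on log2(value + 1) for genes with a mean of at least 0.5, genotype being the only term. Alternatives were other pseudocounts, filters, scalings and eBayes settings, a replicate block, leaving out each library, and edgeR 4.0.16 and DESeq2 1.42.0 on the recovered reads. Permutation tests used SciPy 1.17.1. The procedure was tested on simulated data. The labels number the libraries of each genotype 1 to 3, and each was taken to be from a separate mouse.

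The members, lists and tests were chosen with earlier results of these data known. Named are all aquaporins, Ncoa2, the lowest adjusted p-values among the called genes of each pathway list (at most 4), and the 3 genes nearest to each called aquaporin. Gk, Nfat5, Umod, Avpr2, Pou5f1, Elf5 and the embryo list were chosen after their values were seen. GENCODE M21 gave exon lengths and neighbours, and RefSeq gave the upstream windows. 1 aquaporin window is not analysed here.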

Additional observations from a re-analysis of the deposited data

How the results depend on the processing

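The number of aquaporins called higher in SRC-2d/d was 1, and lower 0, under each alternative that kept all 6 libraries. Without 1 library it was 1 to 3 higher and 0 lower. None of the 9 aquaporins changed the sign of its difference under any alternative. Over all genes, 1929 were called higher and 1476 lower, against 683 and 315 with eBayes without trend. Without 1 library the counts were 1013 to 2598 higher and 315 to 2813 lower. The lower count was 819, 2813 and 761 without SRC-2d/d replicates 1 to 3 and 906, 452 and 315 without SRC-2f/f replicates 1 to 3. The higher count was 1093 and 1013 without SRC-2f/f replicates 2 and 3. The cause was not tested. With the replicate number as a block, 2104 genes were higher and 1708 lower, and Aqp8 was still the 1 aquaporin called. Same-numbered libraries had correlations of deviations of 0.376, 0.015 and 0.027 for replicates 1 to 3, the first being the highest of all pairs. SRC-2d/d replicate 2 correlated best with SRC-2f/f replicate 3 (0.341). Deviations from a mean of 3 libraries constrain each other, so these values do not settle whether same-numbered libraries share more than a number. Aqp2, Aqp4, Aqp6, Aqp7, Aqp12 and Mip rest on few reads, and only large differences were detectable in them. Small differences could be missed in the other aquaporins too. In simulated counts, 84% of 4-fold and 13% of 2-fold changes were recovered, with 100 genes each of mean at least 100. Of the 109 simulated calls, 12 were of unchanged genes. A gene not called is therefore not shown to be unchanged.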

Other observations

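The protein-coding neighbours of Aqp8 in the GENCODE M21 order, Lcmt1 and Zkscan2, were not called. Lcmt1 averaged 6143 ± 1232 in SRC-2d/d and 4987 ± 700 in SRC-2f/f (SD, n = 3 each, limma adjusted p = 0.503), and Zkscan2 averaged 394.6 ± 36.8 in SRC-2d/d and 409.8 ± 54.1 in SRC-2f/f (limma adjusted p = 0.947). Beside Aqp4, Kctd1 averaged 27528 ± 3514 in SRC-2d/d and 6642 ± 576 in SRC-2f/f (log2 difference 2.05, SE 0.20, limma adjusted p = 2.25e-05). Beside Aqp1, Mindy4 averaged 2887 ± 1277 in SRC-2d/d and 5686 ± 570 in SRC-2f/f (log2 difference -1.06, SE 0.28, limma adjusted p = 0.0297). The other neighbours that are not aquaporins (Ghrhr, Chst9, Faim2, Nol6, Nfx1, Lipc, Aldh1a2, Clns1a and Pak1) were not called. Of all tested genes 9.42% were called in either direction. All of these neighbours were looked at after the data were seen.

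The pseudogene Aqp10-ps had 98.8, 60.3 and 49.6 normalized counts in SRC-2d/d replicates 1 to 3, against 119.5, 125.1 and 65.2 in SRC-2f/f replicates 1 to 3 (limma adjusted p = 0.569). Among other marker lists, 0 of 10 stromal and decidual genes were called higher and 7 lower in SRC-2d/d. The number lower was 3 to 8 without 1 library and 2 with eBayes without trend. Of 6 lymphatic genes 0 were higher and 1 (Pdpn) lower, and of 5 mesothelial genes 0 were higher and 1 (Wt1) lower. The Pdpn and Wt1 calls were lost with eBayes without trend, and 4 of the 5 mesothelial differences were above 0. Of 5 oviduct and ciliated-cell genes 1 (Ovgp1) was higher and 0 lower. The shares over all tested genes were 5.34% higher and 4.08% lower, and 1 call says little about a list.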
